A study of Mus musculus with 6 samples.

Results

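The astrocyte marker and reactive genes are 32 genes that are widely used to recognise astrocytes or their reactive state, and their RNA was measured in the arcuate nucleus (ARC) of male mice on 2 diets. The list was given by gene name, and all 32 were found by Ensembl identifier among the 22322 genes of the deposited table. From 4 weeks of age male mice ate chow with 16.5% fat (the NCD group) or a fat-rich chow with 60% fat (the HFD group), in both cases for 16 weeks, and the HFD is used to bring about diet-induced obesity (DIO). ARC tissue was freed from frozen brain sections by laser capture microdissection (LCM), a method that cuts a chosen area out of a section with a laser. RNA-seq was done on 3 samples per diet, and each is called by its diet and number (NCD1, HFD1 and so on). The labels give no other difference between the groups. The methods name C57BL/6J wild-type mice and a cross of Kiss1-Cre with R26R-EYFP reporter mice that was used to locate the region, and do not say which of them gave the RNA or whether a sample was 1 mouse or a pool of several. The p-values below therefore measure the spread between these samples, which may be technical.

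NCD1 had 15925648 counts in all, NCD2 9937632 and NCD3 6882449. HFD1 had 8024664, HFD2 10479778 and HFD3 5171381, so the sample numbered 3 was the smallest library of both diets. The labels give no sequencing date or batch. Levels are given as CPM, the counts scaled to a common library size, where 1 gene is compared between samples. They are given as FPKM, which is also scaled to the length of the transcript, where genes are compared with each other. Markers of arcuate neurons were present. *Cartpt*, a peptide gene of POMC neurons, was the most abundant of them at a mean of 749.0 FPKM, while *Kiss1*, the gene that marks the neurons the cut was aimed at, had no count in NCD1 or HFD1 and between 2.07 and 7.9 CPM in the other 4 samples.

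Astrocytes are glial cells that take up glutamate and potassium around synapses, wrap blood vessels with their endfeet, hold glycogen and supply neurons with lactate, lipids and glutamine. In the hypothalamus they also sense nutrients and hormones such as leptin, and on fat-rich diets they have been described to become reactive, with thicker processes and more of the filament protein GFAP. Reactive astrocytes turn on a set of genes in part through the JAK and STAT3 pathway, and the acute phase protein genes *Serpina3n* and *Lcn2* are common reporters of that state. LCM takes every cell type in the area, so a change in the RNA of these genes cannot be told apart as fewer astrocytes or less RNA per astrocyte.

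Astrocyte RNA was abundant in all 6 samples. Of the 32 genes, 31 had counts in every sample and passed the filter on low counts, and the exception was *Lcn2*. The highest level per length belonged to *Cst3*, which encodes the secreted protease inhibitor cystatin C, at a mean of 4220 FPKM over the samples. *Apoe*, which encodes the main lipid carrier of the brain, followed at 3423 FPKM, and then the glycolytic enzyme gene *Aldoc* at 728 FPKM, *Ndrg2* at 561 FPKM and *Clu*, the gene for the chaperone clusterin, at 463 FPKM. *Gfap* was only the 15th gene in this order at 90.8 FPKM and *Serpina3n* the 22nd at 51.2 FPKM. The lower end was formed by *Aldh1l1* at 15.7 FPKM, *Slc7a11* at 8.3 FPKM, *Cd44* at 3.19 FPKM and *Lcn2* at 0.302 FPKM. *Cst3* and *Apoe* did not separate beyond their spread, since the lowest *Cst3* value, 2514.2 FPKM in NCD1, lay below every *Apoe* value. The ranges over the 6 samples overlapped in 27 of the 30 pairs of neighbours in this order, as the plot of FPKM by sample shows.

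**Figure D1:**
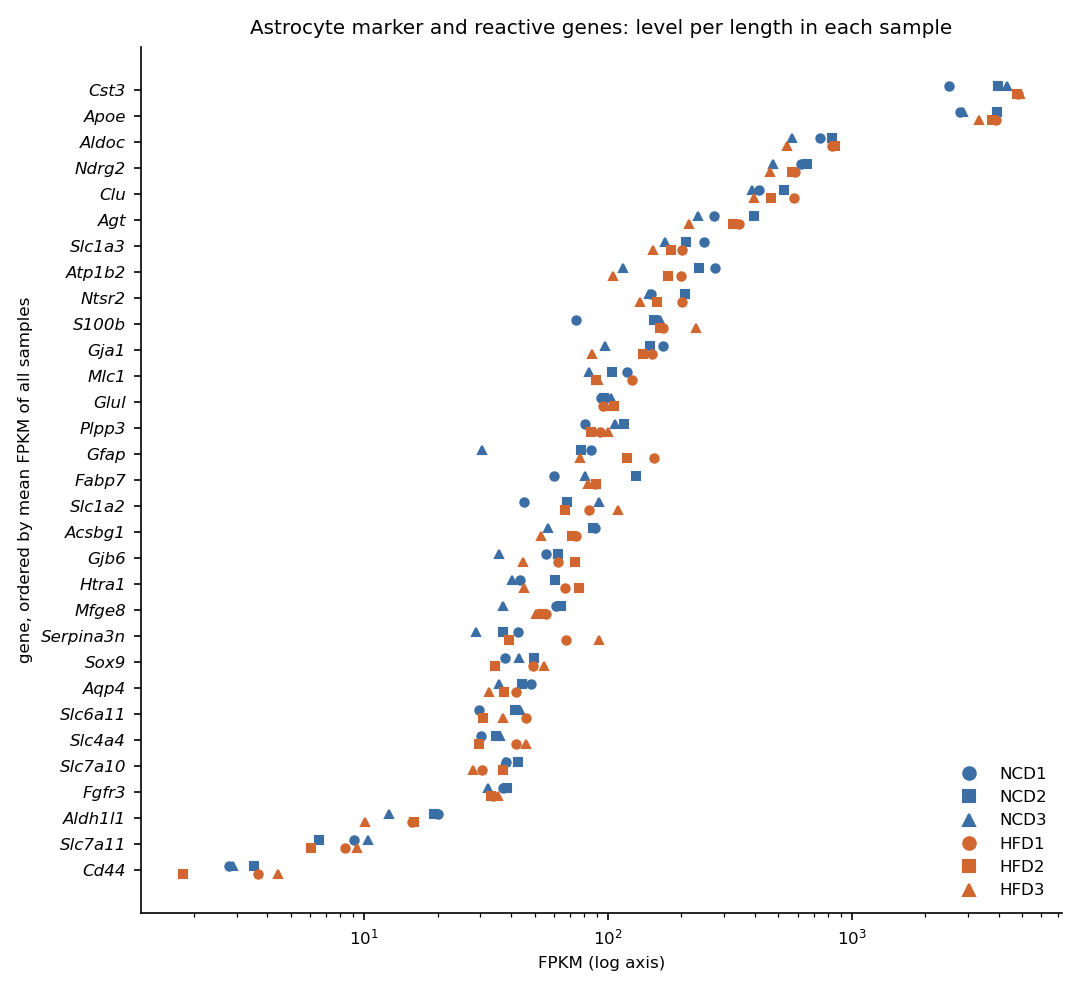
FPKM of the 31 genes with enough counts in each of the 6 samples, on a log axis, with genes ordered by their mean and *Lcn2* left out because it was at 0 in HFD2. Blue symbols are NCD samples and orange symbols HFD samples, and the symbols of the 2 diets lie mixed in most rows, while the blue triangle of NCD3 stands far to the left for *Gfap*.

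The diet comparison asked which of these genes differed between HFD and NCD. For most of them, the common markers *Aldh1l1*, *Aqp4*, *Slc1a3* and *Sox9* included, the confidence interval of the difference included 0. The exceptions were *Gfap* and *Serpina3n*, which were higher in HFD by 1.84-fold and 1.82-fold at an unadjusted p under 0.05 (quasi-likelihood test of edgeR). These were 2 of the 31 genes tested, beside 2.3% of all 14188 genes tested, and both were higher, beside 1.21% of all genes. Both also passed the rule the study used, a p-value under 0.05 with a change over 1.5-fold, which 1.9% of all genes passed. After adjustment over all genes none of the 31 was called in edgeR, where the smallest adjusted p was 0.999. DESeq2, and limma on log2(FPKM + 1), also called 0 after adjustment and 2 before it, beside 1.93% and 2.29% of all genes. The share of all genes with an adjusted p under 0.05 was 0.0564%, which is 8 genes.

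By sign alone, 15 of the 31 genes had a higher estimate in HFD and 16 a lower one. Their median log2 fold change was -0.01, beside 0.0 for all genes, and the estimates ran from -0.36 to 0.88. Standard errors lay between 0.19 and 0.35 with a median of 0.24 (n = 3 per diet). For 27 of the 31 genes the 95% interval of the difference stayed within a 2-fold change in either direction, and for 19 the estimate itself was smaller than 0.2 on the log2 scale. A change of 2-fold or more was therefore outside the interval for most of these genes. The groups were free of overlap for 1 of the 31 genes, *Cst3*, with HFD above NCD, where 3.24% of all genes had HFD above NCD and 6.47% had no overlap in either direction.

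**Figure D2:**
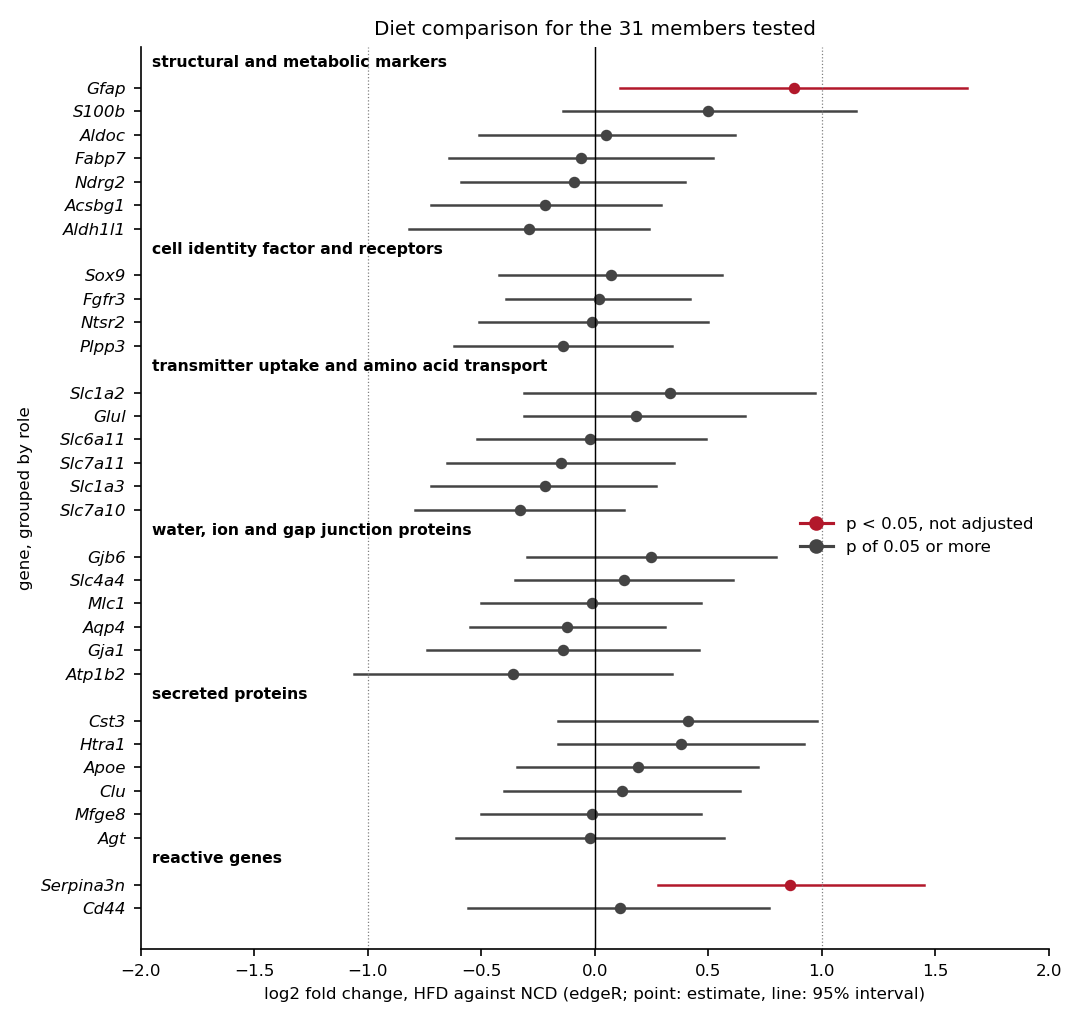
Log2 fold change of HFD against NCD for the 31 genes tested, grouped by role, with the edgeR estimate as a point and its 95% interval as a line. Red marks *Gfap* and *Serpina3n*, whose intervals lie above 0, and all other intervals include 0. Dotted lines stand at a 2-fold change.

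*Gfap* encodes the intermediate filament protein of astrocytes and is the classical sign of their reactive state. The gene (ENSMUSG00000020932) lies on chromosome 11 from 102887336 to 102900912 on the minus strand of GRCm38, the span of all its transcripts in GENCODE M21. Its level was 216.6, 207.1 and 83.1 CPM in NCD1, NCD2 and NCD3 and 406.3, 328.1 and 197.6 CPM in HFD1, HFD2 and HFD3. The first and second HFD samples stood above every NCD sample, but HFD3 lay below NCD1 and NCD2, so the groups overlapped. NCD3 was far below the other NCD samples. The mean was 168.9 ± 74.5 CPM on NCD against 310.6 ± 105.5 CPM on HFD (SD, n = 3 each). The log2 fold change was 0.88 with a standard error of 0.35, a 95% interval from 0.11 to 1.64, an unadjusted p of 0.0275 and an adjusted p of 0.999 in edgeR. A two-sided exact permutation test on log2 CPM gave p = 0.3, and 3 samples against 3 cannot give less than 0.1.

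The *Gfap* call depended on single samples. Leaving out NCD3 gave a log2 fold change of 0.56 and an unadjusted edgeR p of 0.0725. Leaving out HFD1 gave 0.64 with 0.126, and leaving out HFD2 gave 0.83 with 0.0529, on the same scales. *Gfap* was lowest in the smallest library of each diet, as were 23.6% of all genes tested. In NCD *Gfap* fell with library size from NCD1 to NCD3, while in HFD the sample HFD1 stood above the larger library HFD2. Whether library size was a cause of the *Gfap* levels was not tested. With log2 library total as a covariate in edgeR, *Gfap* had a log2 fold change of 1.35 ± 0.25 (SE). Its adjusted p was then 0.0453, and in that fit 3.15% of all genes had an unadjusted and 0.106% an adjusted p under 0.05. Without NCD3 and HFD3 together, an alternative chosen after seeing the data, the log2 fold change was 0.80 with an unadjusted p of 0.00363 in edgeR, and 5.0% of all genes had an unadjusted p under 0.05. All 16 alternatives gave a higher level in HFD, from 0.56 to 1.35 on the log2 scale, and 13 of them an unadjusted p under 0.05.

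*Serpina3n* encodes a secreted serine protease inhibitor of the acute phase response that reactive astrocytes release. The gene (ENSMUSG00000021091) lies on chromosome 12 from 104406729 to 104414329 on the plus strand. Its level was 84.3, 77.2 and 61.5 CPM in the NCD samples and 139.2, 83.6 and 184.4 CPM in the HFD samples, in the order of their numbers. HFD1 and HFD3 were clearly above every NCD sample, while HFD2 lay in the range of the NCD group and just below NCD1. The mean was 74.3 ± 11.7 CPM on NCD against 135.7 ± 50.5 CPM on HFD (SD, n = 3 each). The log2 fold change was 0.86 with a standard error of 0.27, a 95% interval from 0.28 to 1.45, an unadjusted p of 0.00738 and an adjusted p of 0.999 in edgeR. The two-sided exact permutation test on log2 CPM gave p = 0.2.

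*Serpina3n* passed at an unadjusted p under 0.05 with any single sample left out, with p-values in edgeR of 0.0452 at most and log2 fold changes from 0.58 to 1.12. The smallest of these was found without HFD3 and the largest without HFD2. Without NCD3 and HFD3 together the log2 fold change was 0.47 and the unadjusted p 0.0886 in edgeR. *Serpina3n* belongs to a cluster of near-identical inhibitor genes, between which read assignment can be uncertain. It held 5516 counts over the samples, and none of the other 9 genes of the cluster in the table held more than the 65 counts of *Serpina3i*. *Serpina3i* had a log2 fold change of 0.05. *Serpina3g*, below the filter and not tested, had 3, 1 and 2 counts in NCD and 10, 10 and 11 counts in HFD. *Serpina3f*, not tested either, had 0, 0 and 0 counts in NCD and 2, 0 and 4 counts in HFD. These 3 genes were named after their values were seen.

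In NCD both *Gfap* and *Serpina3n* were highest in NCD1 and lowest in NCD3, while in HFD their order differed. In HFD the highest *Serpina3n* level belonged to HFD3, where *Gfap* was lowest, and the lowest belonged to HFD2. The other reactive genes of the 32 gave little. *Cd44*, the gene for the hyaluronan receptor of reactive astrocytes, was at 12.4, 16.1 and 14.1 CPM in NCD and 15.2, 9.37 and 21.8 CPM in HFD. HFD1 lay within the NCD range, HFD2 below it and HFD3 above it, and the log2 fold change was 0.11 ± 0.31 (SE, edgeR). *Lcn2*, the gene for lipocalin 2, an iron-carrier binding protein of the acute phase, had 1, 1 and 4 counts in NCD and 1, 0 and 4 counts in HFD. It was not tested, and a count of 0 in HFD2 allows up to 0.2957 CPM. Both samples with 4 counts were the smallest libraries. A small difference in *Lcn2* was thus not detectable at this depth.

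**Figure D3:**
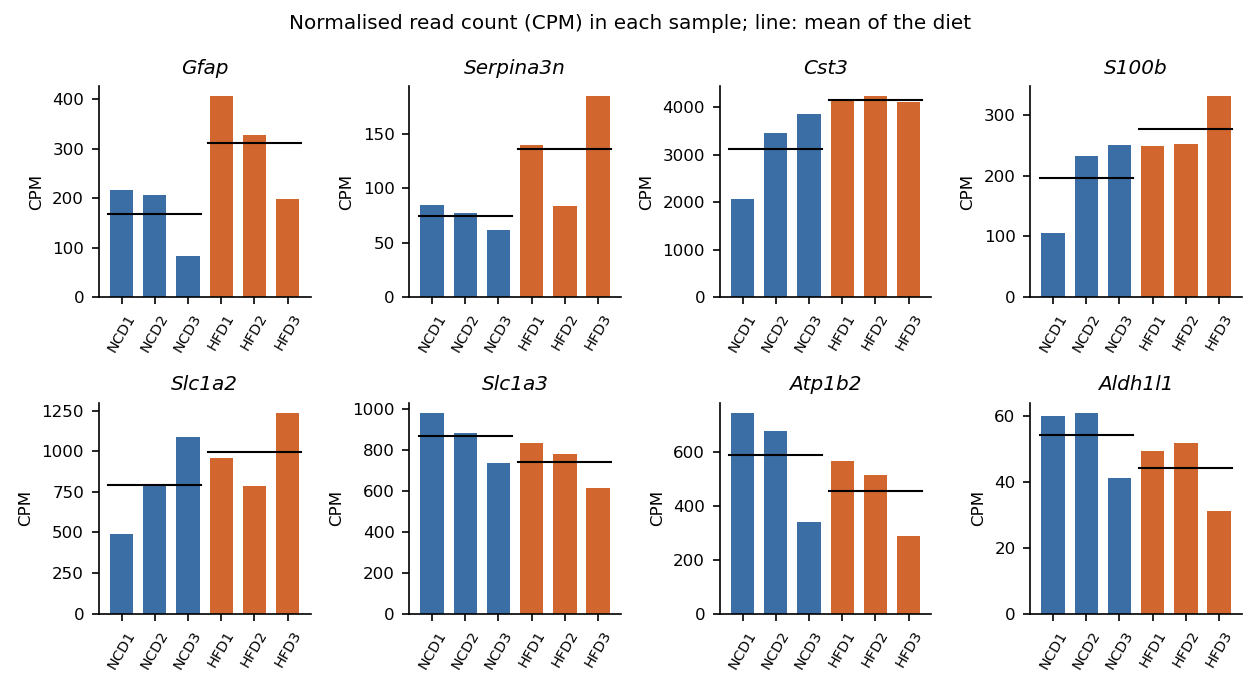
CPM of 8 astrocyte genes in each sample, with NCD in blue, HFD in orange and a line at the mean of each diet. *Gfap* and *Serpina3n* have a higher mean in HFD with 1 HFD sample each among the NCD values, *Cst3* is nearly level across HFD while NCD1 is low, and the bars of *Slc1a3*, *Atp1b2* and *Aldh1l1* are lowest in HFD3.

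The promoters of the 2 genes that were higher in HFD are shown beside that of *Slc1a3*, an astrocyte gene with a match to the same motif that had a lower estimate in HFD. The sequences are from RefSeq on GRCm38.p6 and run from 120 bases before the start in RefSeq to 30 bases after it, 5′ to 3′ on the gene's strand. These starts differ from the outer ends of the GENCODE spans, and that of *Gfap* lies inside the span given above. They lie at chr11:102897171-102897320 (minus strand) for *Gfap*, chr12:104406588-104406737 (plus strand) for *Serpina3n* and chr15:8710778-8710927 (minus strand) for *Slc1a3*. Capitals mark a match to TTCNNNGAA, the palindromic letters that STAT dimers bind, which reads the same on both strands.
Gfap: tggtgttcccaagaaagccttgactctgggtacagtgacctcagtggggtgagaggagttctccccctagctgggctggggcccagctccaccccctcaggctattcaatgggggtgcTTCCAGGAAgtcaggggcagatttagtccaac
Serpina3n: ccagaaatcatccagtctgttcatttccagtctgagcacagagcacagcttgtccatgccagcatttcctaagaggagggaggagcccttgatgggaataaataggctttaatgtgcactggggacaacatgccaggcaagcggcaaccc
Slc1a3: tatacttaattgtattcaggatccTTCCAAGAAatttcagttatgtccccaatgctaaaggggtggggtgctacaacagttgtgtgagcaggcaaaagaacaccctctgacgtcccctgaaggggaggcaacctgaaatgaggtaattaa

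In *Gfap* the match ran from position -2 to position 6 with the first base in RefSeq as 0, and in *Slc1a3* from -96 to -88. The window of *Serpina3n*, also when read over the full 300 bases of the table's entry, held no match. RefSeq promoters of 250 bases before and 50 after the start were found for 28 of the 32 genes, in 35 windows, and not for *Atp1b2*, *Sox9*, *Aqp4* and *Clu*. The letters TTCNNNGAA stood in 7 of the 35 windows, those of *Acsbg1*, *Agt*, *Aldoc*, *Gfap*, *Ntsr2*, *Slc1a3* and *Slc7a11*, and in 8.3% of all 32851 windows. Of these 7 genes only *Gfap* had an unadjusted p under 0.05 in edgeR. On either strand the AP-1 letters TGANTCA stood in 1 of the 35 windows, that of *Gja1*, and in 7.81% of all windows. The nuclear factor I letters TTGGCA stood in 4 of them, those of *Aldoc*, *Apoe*, *Lcn2* and *S100b*, and in 14.1% of all windows. The CRE letters TGACGTCA stood in none of the 35 and in 1.79% of all windows.

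The structural and metabolic markers other than *Gfap* did not pass the test. *S100b*, the gene for a calcium-binding protein of astrocytes, had the next largest estimate of this group. It was at 105.4, 232.1 and 250.2 CPM in NCD and 249.2, 251.6 and 331.0 CPM in HFD. NCD1 was low and NCD3 reached the level of HFD1, so the groups overlapped, and the log2 fold change was 0.50 ± 0.30 (SE) with an unadjusted p of 0.116 in edgeR. *Aldh1l1*, a folate enzyme gene that is the standard pan-astrocyte marker, was at 59.9, 60.9 and 41.1 CPM in NCD and 49.2, 51.8 and 31.2 CPM in HFD. HFD1 and HFD2 lay between NCD3 and the other NCD samples and HFD3 below all, and the log2 fold change was -0.29 ± 0.24 (SE). The estimates of *Aldoc* (0.05), *Fabp7*, the gene for the brain fatty acid binding protein (-0.06), and *Ndrg2* (-0.09) were near 0, and that of *Acsbg1*, an acyl-CoA synthetase gene (-0.22), did not exceed its standard error. *Fabp7* was even across HFD, from 64.7 to 73.9 CPM, and spread from 46.5 to 106.4 CPM in NCD.

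The astrocyte fate factor and the receptors were the most even group. *Sox9*, the gene for the transcription factor that sets astrocyte fate, had a log2 fold change of 0.07 ± 0.22 (SE, edgeR). *Fgfr3*, the gene for a fibroblast growth factor receptor of astrocytes, was between 120.3 and 140.8 CPM in NCD and between 126.4 and 134.5 CPM in HFD, and its log2 fold change was 0.02 ± 0.19 (SE). It had the smallest standard error of the 31 genes. *Ntsr2*, the gene for the low-affinity neurotensin receptor, had a log2 fold change of -0.01 and *Plpp3*, which encodes a lipid phosphatase, one of -0.14.

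The genes of transmitter uptake gave estimates of both signs. *Slc1a2*, the gene for the glutamate transporter GLT-1, was at 491.7, 788.8 and 1090.6 CPM in NCD and 955.4, 788.7 and 1238.0 CPM in HFD. The NCD samples spread more widely than the HFD samples and held the lowest value of all, and the log2 fold change was 0.33 ± 0.30 (SE, edgeR). *Slc1a3*, the gene for the glutamate transporter GLAST, was at 984.6, 882.1 and 739.5 CPM in NCD and 834.7, 782.7 and 616.2 CPM in HFD. HFD1 and HFD2 lay between NCD3 and the other NCD samples and HFD3 was the lowest, and the log2 fold change was -0.22 ± 0.23 (SE). The largest negative estimate of the group was that of *Slc7a10*, which encodes the D-serine carrier Asc-1, at -0.33 ± 0.21 (SE) with an unadjusted p of 0.146. *Slc7a10* shares exon sequence with *Lrp3* on the other strand, which held 1510 counts beside its own 3587, and the sources used here do not say whether strand was used in counting. *Glul*, the gene for glutamine synthetase (0.18), *Slc6a11*, the gene for the GABA transporter GAT-3 (-0.02), and *Slc7a11*, the gene for the cystine-glutamate exchanger (-0.15), completed the group.

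Among the water, ion and gap junction genes the endfoot genes were close to 0. *Aqp4*, the gene for the water channel of the endfeet, had a log2 fold change of -0.12 ± 0.20 (SE, edgeR) and *Mlc1*, which encodes a membrane protein of the same place, one of -0.01. *Slc4a4*, the gene for a sodium bicarbonate cotransporter, had 0.13. *Atp1b2*, the gene for the sodium pump subunit of astrocytes, had the lowest estimate of all 31 genes. It was at 748.6, 678.2 and 341.0 CPM in NCD and 566.5, 517.5 and 290.7 CPM in HFD. The first and second HFD samples lay between NCD3 and the other NCD samples, and the log2 fold change was -0.36 ± 0.32 (SE) with an unadjusted p of 0.282. The connexin genes that couple astrocytes had estimates of opposite sign, -0.14 ± 0.28 (SE) for *Gja1* (connexin 43) and 0.25 ± 0.25 (SE) for *Gjb6* (connexin 30).

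The genes of secreted proteins had a median log2 fold change of 0.15, and 4 of the 6 genes had a higher estimate in HFD, although none passed the test. *Cst3* was at 2073, 3451 and 3869 CPM in NCD and 4134, 4236 and 4104 CPM in HFD. The HFD samples were nearly equal and all above NCD, where NCD1 was the lowest by far. The log2 fold change was 0.41 ± 0.26 (SE) with an unadjusted p of 0.146 in edgeR, and the two-sided exact permutation test gave its smallest value, p = 0.1. *Htra1*, a secreted serine protease gene, had a log2 fold change of 0.38 ± 0.25 (SE), *Apoe* 0.19 ± 0.24 (SE) and *Clu* 0.12 ± 0.24 (SE). *Agt*, which encodes the angiotensin precursor that astrocytes make in the brain, was at -0.02, and *Mfge8*, the gene for a phagocytosis bridging protein, was at -0.01.

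Samples of the same diet differed widely for some of the genes. The ratio of the highest to the lowest NCD sample was 2.61 for *Gfap*, 2.37 for *S100b*, 2.29 for *Fabp7*, 2.22 for *Slc1a2* and 2.2 for *Atp1b2*. These were the largest ratios in NCD among the 31 genes, and the smallest was 1.09 for *Aqp4*. The samples numbered 3 were the lowest of both diets for 14 of the 31 genes, which is 45.2%, beside 23.6% of all genes tested. These were *Gfap*, *Aldh1l1*, *Aldoc*, *Acsbg1*, *Ndrg2*, *Slc1a3*, *Slc7a10*, *Aqp4*, *Mlc1*, *Atp1b2*, *Gja1*, *Gjb6*, *Agt* and *Mfge8*. They were the highest of both diets for *S100b*, *Slc1a2* and *Slc7a11*, which is 9.68% beside 21.7% of all genes. The mitochondrially encoded genes took the opposite course, with summed levels of 30644, 42905 and 68015 CPM in NCD and 41535, 36271 and 56112 CPM in HFD, highest in the sample numbered 3 of each diet. Their part in the astrocyte values was not tested.

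Summed up, the 32 genes held between 1.51% and 1.97% of all counts. Their summed level was 14505, 19115 and 16145 CPM in NCD and 19657, 18924 and 16481 CPM in HFD. In CPM only HFD1 was above every NCD sample. The mean sum was 16589 ± 2337 CPM on NCD against 18354 ± 1663 CPM on HFD (SD, n = 3 each), a ratio of 1.11, and the samples of the diets overlapped. *Apoe* and *Cst3* supplied much of that sum, and without *Apoe* the means were 12894 ± 1541 CPM and 14146 ± 1223 CPM. Without *Apoe* and *Cst3* the sum was 9359, 11053 and 8877 CPM in NCD and 11046, 10226 and 8691 CPM in HFD. No HFD sample was then above every NCD sample. On the FPKM scale the summed means were 10758 ± 1618 in NCD and 12503 ± 792 in HFD. There HFD1 and HFD2 were above every NCD sample and HFD3 was not.

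Each gene was also set against the mean log2 CPM of the other 30 genes in the same sample, a description that takes out shifts the astrocyte genes share. On this scale *Gfap* was at 0.16, -0.23 and -1.26 in NCD and 0.76, 0.59 and -0.03 in HFD, where 0 is its mean over the samples. HFD3 still lay below NCD1, so the groups overlapped, and the difference of the means was 0.89. For *Serpina3n* the difference was 0.75, again with overlap. *Slc1a3* and *Slc7a10* were the genes with every HFD sample below every NCD sample on this scale, by -0.32 and -0.42, and no gene had every HFD sample above. These were 2 of the 31 genes, where 4.02% of all genes tested had every HFD sample below and 1.29% every HFD sample above on the same scale, and the groups overlapped for both genes in CPM.

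A further list held 55 astrocyte genes outside the 32, and all were tested. By sign 21 were higher and 34 lower in HFD, their median log2 fold change was -0.05, and *Sparc* was the most abundant at a mean of 1249 FPKM. In edgeR 4 were higher and 2 lower at an unadjusted p under 0.05, beside 1.21% higher and 1.09% lower of all genes, and none had an adjusted p under 0.05. *Slc15a2*, which encodes a peptide transporter, was at 9.09, 12.3 and 9.33 CPM in NCD and 23.7, 16.1 and 26.3 CPM in HFD. Every HFD sample was above every NCD sample, and the log2 fold change was 1.10 ± 0.27 (SE) with an adjusted p of 0.851 in edgeR. The other genes higher in HFD were *Mt2*, a metallothionein gene (log2 fold change 0.77), *Id3*, which encodes an inhibitor of helix-loop-helix factors (0.58), and *Fam107a* (0.52). The genes lower in HFD were *Ppp1r3c*, which encodes a glycogen-targeting phosphatase subunit (-0.53), and *Tril*, which encodes a partner of Toll-like receptors (-0.49). The groups did not overlap for any of these 6 genes, which were picked by their p. Of all 55 genes, 6 had every HFD sample above every NCD sample in CPM and 3 every HFD sample below, beside 3.24% of all genes in each direction.

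The reactive gene lists had mostly higher estimates in HFD, where 7160 of all 14188 genes had a higher and 7028 a lower one. The pan-reactive list of 13 genes, 4 of which are among the 32, had 10 genes tested. Of these 9 had a higher estimate and 1, *S1pr3*, a lower one, with a median log2 fold change of 0.74, and 3 were higher at an unadjusted p under 0.05 in edgeR (*Gfap*, *Serpina3n* and *Hspb1*), beside 1.21% of all genes. *Hspb1*, the gene for a small heat shock protein, was at 27.3, 25.3 and 45.0 CPM in NCD and between 45.1 and 54.7 CPM in HFD. NCD3 came within 0.1 CPM of HFD2 without reaching it, and the log2 fold change was 0.63 ± 0.24 (SE). Of the reactive genes ascribed to the neurotoxic class 12 of 13 were tested, and 11 had a higher estimate. Only *Psmb8*, an immunoproteasome subunit gene, was higher at an unadjusted p under 0.05 (0.67). *Amigo2* had the highest CPM of that class, while per length *H2-D1* was highest at a mean of 66.3 FPKM against 54.9 for *Amigo2*. Of the class ascribed to ischemia 7 of 12 were tested, of which 5 had a higher and 2 a lower estimate, from -0.72 to 0.90. *Cd14*, a co-receptor gene for bacterial lipopolysaccharide that microglia also express, was the gene higher at an unadjusted p under 0.05 (0.90). *Tm4sf1* had the highest CPM of this class, while per length *S100a10* was highest at a mean of 75.8 FPKM against 33.9 for *Tm4sf1*. *S1pr3*, *H2-D1* and *S100a10* were named after their values were seen.

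Counted together, these 3 lists held 38 genes, of which 29 were tested, 25 had a higher estimate in HFD and 5 were higher at an unadjusted p under 0.05, beside 1.21% of all genes. Their median log2 fold change was 0.49, beside 0.0 for all genes. None was lower at an unadjusted p under 0.05, and none had an adjusted p under 0.05 in edgeR. Their summed level was 1020, 984.3 and 845.3 CPM in NCD and 1409, 1139 and 1300 CPM in HFD, with every HFD sample above every NCD sample and *Gfap* as the largest contributor. Without *Gfap* the sum was 803.7, 777.2 and 762.2 CPM in NCD and 1002, 810.7 and 1102 CPM in HFD. The mean log2 CPM of the 38 genes, in which abundant genes weigh no more than others, was 2.61, 2.53 and 2.27 in NCD and 2.79, 2.44 and 3.03 in HFD. On that scale HFD2 lay below NCD1 and NCD2, so the groups overlapped. The summed level of the pan-reactive genes without *Gfap* overlapped as well, at 223.1, 217.3 and 218.3 CPM in NCD and 332.2, 220.2 and 418.6 CPM in HFD.

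Of 14 genes of the JAK and STAT3 pathway, 12 were tested, 7 had a higher estimate and 5 a lower one, with a median of 0.05. *Socs3*, the feedback inhibitor that STAT3 turns on, was the gene of that list that passed at an unadjusted p under 0.05, which is 1 of 12 beside 2.3% of all genes in either direction. It was at 3.91, 5.6 and 3.31 CPM in NCD and 9.07, 6.01 and 12.4 CPM in HFD, without overlap, and the log2 fold change was 1.08 ± 0.37 (SE) with an unadjusted p of 0.0118. In the list 1 gene had every HFD sample above and 1 every HFD sample below, beside 6.47% of all genes without overlap in either direction. *Jak1* was the most abundant gene of the list at a mean of 37.4 FPKM.

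Markers of other cell types were measured in the same tissue, since several of them make these genes too. Tanycytes, the radial glia that line the floor of the third ventricle beside the ARC, share filament genes with astrocytes. All 12 tanycyte markers were tested and had a higher estimate in HFD, with a median of 0.44, and *Crym* (0.89) and *Col23a1* (0.91) were higher at an unadjusted p under 0.05 in edgeR, beside 1.21% of all genes. Their summed level was 400.5, 287.6 and 418.3 CPM in NCD and 487.3, 310.6 and 674.9 CPM in HFD. *Col25a1* gave the largest part of that sum, while per length the filament gene *Vim*, named after its values were seen, was highest at a mean of 27.3 FPKM against 15.2 for *Col25a1*. Of the HFD samples HFD3 was the highest and HFD2 the lowest, the same order as for *Serpina3n*. In NCD the orders differed, since the tanycyte sum was highest in NCD3, where *Serpina3n* was lowest. No tanycyte marker was at 0 in any sample, and their part in the *Serpina3n* and *Gfap* values was not tested.

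Microglia are the resident immune cells of the brain and also release acute phase signals. Of the 10 microglia markers 6 had a higher estimate and 3 were higher at an unadjusted p under 0.05 in edgeR, *Ctss* (0.50), *C1qa* (0.46) and *C1qb* (0.44), beside 1.21% higher and 1.09% lower of all genes. Their summed level was 557.8, 593.5 and 485.4 CPM in NCD and 656.7, 645.0 and 659.3 CPM in HFD, with no overlap and *Ctss* as the most abundant gene. Oligodendrocyte markers, led by *Mbp*, had a lower estimate in 8 of 10 genes, with *Opalin* at -0.88 past the test, and oligodendrocyte precursor markers, led by *Olig1*, in all 6 without a gene past the test. Mural cell markers, led by *Rgs5* in CPM and by *Vtn* in FPKM, had a lower estimate in all 8, with *Acta2* (-0.83) and *Tagln* (-1.05) past it. Endothelial markers, led by *Itm2a*, split evenly by sign, with *Ly6c1* higher (0.81) and *Cldn5* lower (-0.48). Neuron markers, led by *Snap25*, had a median of 0.04 and no gene past the test, and the arcuate neuron list had *Cartpt* (0.75) and *Tac2* (0.60) higher. *Tekt4* (0.99) was higher among 8 ependymal markers, of which *Ccdc153* was the most abundant. No gene of these lists had an adjusted p under 0.05, and the part of any of these cell types in the astrocyte values was not tested.

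Red blood cell markers, led by *Hba-a2*, summed to between 781.7 and 2488 CPM, with the lowest and the highest sum both in NCD samples, and the mitochondrially encoded genes, led by *mt-Co1* in CPM and by *mt-Atp6* in FPKM, also varied more between samples than the astrocyte genes did. No gene of either list passed the test. The meningeal fibroblast markers, led by *Dcn*, summed to 141.7 CPM in HFD3 and to between 43.1 and 67.0 CPM in the other samples. The summed tanycyte markers, the summed fibroblast markers and *Serpina3n* were all highest in HFD3, although not every tanycyte marker was. The log2 fold change of *Serpina3n* was 0.86 with all samples, 0.58 without HFD3 (unadjusted p 0.0452) and 0.47 without NCD3 and HFD3 (unadjusted p 0.0886) in edgeR, and the part of these markers in it was not tested. None of the fibroblast markers passed the test. Choroid plexus markers were low, and none of the 3 tested passed. *Kl* had the highest CPM of them, at a mean of 8.92, while per length *Folr1* was highest at 2.43 FPKM against 1.74 for *Kl*. *Vtn*, *mt-Atp6* and *Folr1* were named after their values were seen.

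**Figure D4:**
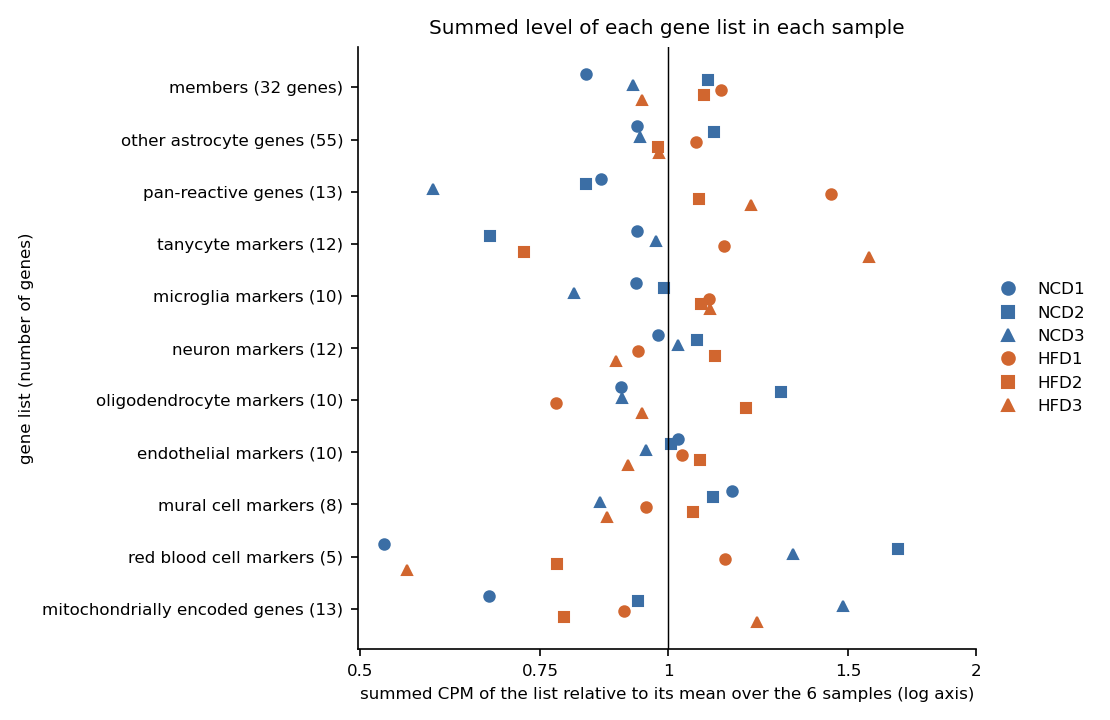
Summed CPM of each gene list in each sample relative to the list's mean over the 6 samples, on a log axis. Blue symbols are NCD and orange symbols HFD. The 32 astrocyte genes lie mixed between diets, the sums of the pan-reactive list, which *Gfap* leads and which overlaps between diets without it, and of the microglia list have every HFD sample to the right of every NCD sample, and HFD3 stands far to the right for tanycyte markers.

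The choice of test and samples left the sign of *Gfap* and *Serpina3n* as it was and moved the size of the difference, as the plot of both genes by setting shows. For *Serpina3n* the 16 alternatives gave log2 fold changes from 0.47 to 1.12, and 15 of them an unadjusted p under 0.05. The adjusted p of *Gfap* was under 0.05 with the library total as a covariate and in no other of the 16, and that of *Serpina3n* was at least 0.344 in all of them.

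**Figure D5:**
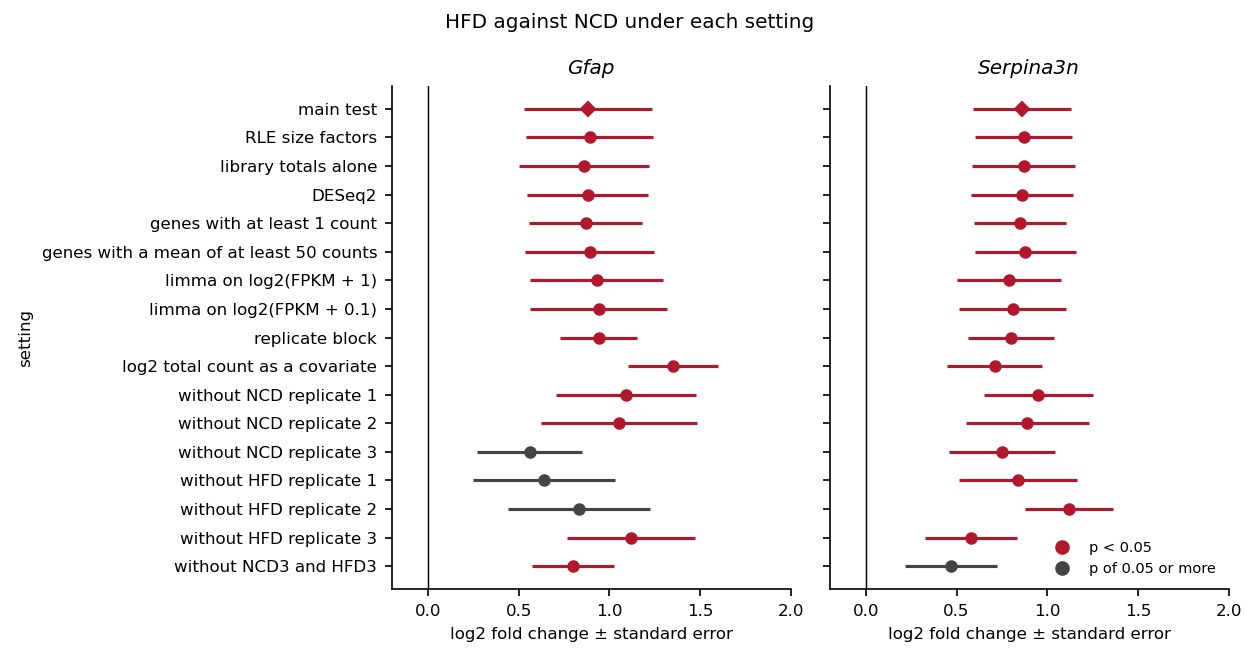
Log2 fold change of HFD against NCD with its standard error for *Gfap* (left) and *Serpina3n* (right) in the test used here and in 16 alternatives. Red points have an unadjusted p under 0.05 and grey points do not. *Gfap* turns grey without NCD replicate 3, HFD replicate 1 or HFD replicate 2, and *Serpina3n* without NCD3 and HFD3 together.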

How the data were processed

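ARC tissue from 3 NCD and 3 HFD samples was compared. The groups and numbers came from the sample titles, which name no diet: C was read as NCD and H as HFD. The authors' group mean FPKM columns, which are named by diet, equal the means of the C and H columns within 0.01 FPKM for all 22322 genes. Per the methods, the authors cleaned and screened NovaSeq reads (bowtie2 against ribosomal sequences), placed them on the mouse genome with HISAT2 and took values per gene from StringTie and RSEM. The submitters' processing notes name the build mm10, and versions are not given in the sources used here. The deposited table holds read counts, which the authors did not normalize, and FPKM values, which the authors scaled to transcript length and mapped reads. Its group means served only for that check, and its fold changes, p-values and FDR columns from the authors' own comparison were not used.

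Of 22322 identifiers, 22267 matched GENCODE M21 on GRCm38 and 55 did not. Counts were filtered with filterByExpr (14188 genes), normalized with TMM and tested with the quasi-likelihood test of edgeR 4.0.16 in R 4.3.3, with diet as the only term and Benjamini-Hochberg adjustment over all genes. CPM used the tested totals and the TMM factors, and log2 CPM a prior count of 2. Exact permutation tests were two-sided. DESeq2 1.42.0 and limma 3.58.1 with pseudocounts of 1 and 0.1 on FPKM (genes with a mean of at least 0.5) were alternatives, with RLE factors, library totals alone, genes with at least 1 count or a mean of at least 50, the replicate number or the total count in the model, and samples left out.

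The genes and lists were chosen with earlier results of these data known. All 32 genes are named, and of other lists those with an unadjusted p under 0.05 and the gene with the highest mean CPM. Total counts ran from 5171381 to 15925648, so that 3 counts, taken as the floor, were 0.1806 to 0.5644 CPM. Reads carried no molecular identifiers, so such floors cover counting error only. No 2 samples of the same diet agreed within sampling noise. Simulated counts over 14063 genes had the same coefficient of variation, 0.24, for every gene. Changes of 1 and 2 on the log2 scale were set in 100 genes each, all with a mean of at least 50 counts. They were recovered for 44 and 100 genes at an adjusted p under 0.05 in edgeR, with 3 false calls.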

Additional observations from a re-analysis of the deposited data

How the results depend on the processing

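The sign of *Gfap* and *Serpina3n* was kept in all 16 alternatives. Of the other 29 genes, 456 of 464 values stayed at an unadjusted p of 0.05 or more, 55 of the 464 changed sign without a call, and 8 had a p under 0.05: *S100b* (0.58 on the log2 scale with the replicate block, 0.72 without NCD3), *Slc1a2* (0.64) and *Atp1b2* (-0.63) without NCD3, *Gjb6* (0.47) and *Htra1* (0.50) with the total count as a covariate, *Htra1* (0.58) without HFD3, and *Cst3* (0.60) without NCD3 and HFD3. None of these 8 had an adjusted p under 0.05 in edgeR. The 23 genes called in other lists kept their direction, and 85 of 367 values lost the call. All of these genes but *Slc15a2*, *Cartpt* and *Ly6c1* lost it in some alternative, *Socs3* included. In simulated counts, 44 of 100 changes of 2-fold were recovered at an adjusted p under 0.05. The causes were not tested.

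With the total count as a covariate, 4 of the 32 genes were higher at an unadjusted p under 0.05 and 1 at an adjusted p, against 2 and 0. Leaving out each sample gave 1 to 3 higher and 0 to 1 lower. The reactive lists had 5 higher and 0 lower, 8 higher with the replicate block, 1 lower with the covariate and 1 lower without NCD3 and HFD3, and 2 to 7 higher with each sample left out. The 55 further astrocyte genes had 4 higher (2 to 5 with each sample left out) and 2 lower, 1 in each limma fit, 4 with the replicate block, 4 without NCD3 and HFD3, and 0 to 6 with each sample left out. 

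Over all genes, 171 were higher at an unadjusted p under 0.05, 343 with the replicate block, 357 without NCD3 and HFD3, and 96 to 728 with each sample left out. There were 155 lower, 235 among genes with at least 1 count, 246 with the block, 235 with the covariate, 359 without NCD3 and HFD3, and 94 to 450 with each sample left out. At an adjusted p under 0.05, 1 was higher, 4 in DESeq2, 2 among genes with at least 1 count, 0 in each limma fit, 2 with the block, 3 with the covariate, 2 without NCD3 and HFD3, and 0 to 3 with each sample left out. There were 7 lower, 15 in DESeq2, 13 among genes with at least 1 count, 15 with the block, 12 with the covariate, and 1 to 13 with each sample left out. The sources used here do not say whether same-numbered samples were handled together, and this was not tested. The deviations of same-numbered samples from their diet's mean correlated at -0.0116, 0.113 and 0.369. Those of differently numbered samples correlated at -0.385 to 0.311. With the block, *Gfap* had 0.94 with an adjusted p of 0.141 and *Serpina3n* 0.80 with 0.615 in edgeR.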
